A study of Mus musculus and Homo sapiens with 40 samples.

Results

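ATF4 sites were examined at 10 human inflammatory genes, namely the chemokine genes CXCL8, CXCL1, CXCL2, CXCL3 and CCL2, the cytokine genes IL1B, IL6 and TNF, and the NF-kB inhibitor genes TNFAIP3 and NFKBIA. Each locus comprised the gene as annotated by GENCODE on hg38 plus 50 kb on both sides, and a site belonged to it when the summit, the position of highest signal in the peak, lay inside. These loci held 23 of the 16305 ATF4 sites on the standard chromosomes, in 24 gene-site pairs, because 1 site lay within reach of both CXCL2 and CXCL3. The rule names the genes and sets no condition on ATF4 signal, and the number, place and strength of the sites were measured. The genes and the comparison lists were, however, chosen with earlier results of these data known. Their shares are therefore not free of selection.

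The series contains ChIP-seq of 40 samples, 2 of them from KO-52, a human acute myeloid leukemia line that the study describes as carrying biallelic CEBPA mutations. ATF4 was precipitated in 1 library of KO-52 cells stressed for 4 h with tunicamycin at 2 µg/mL, and 1 input library of tunicamycin-treated KO-52 cells was the control. The chromatin was crosslinked with DSG in addition to formaldehyde, which also retains proteins that reach DNA through a partner. No KO-52 library without tunicamycin and no further ATF4 library was analysed here, so a change upon stress could not be measured and no value has a replicate error. The deposited list gives peaks and no read counts, so the depth of the library could not be read from it.

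ATF4 is a basic leucine zipper transcription factor whose translation increases when cells sense stress, for example when tunicamycin blocks protein glycosylation and unfolded proteins accumulate in the endoplasmic reticulum. It activates genes for amino acid supply, tRNA charging and stress feedback. It binds DNA as a dimer, and with CEBP proteins it recognizes a composite sequence, TGATGCAA, in which each partner contacts part of the site. The inflammatory genes studied here are classical early targets of NF-kB and AP-1 in myeloid cells. CXCL8, CXCL1, CXCL2 and CXCL3 draw neutrophils, CCL2 draws monocytes, IL1B, IL6 and TNF are cytokines that amplify inflammation, and TNFAIP3 and NFKBIA restrain NF-kB.

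The sequences below are those to which the account of strong, weak and missing sites refers. Whether their letters account for site strength was not tested. All are hg38 reference sequence, not read from KO-52, and run 5′ to 3′ on the named strand. Capitals mark the 8 bases that match or come nearest to TGATGCAA or, at the pair beside CXCL8 and CXCL2, to the CEBP sequence TTGCGCAA.
IL1B, strongest site, chr2:112794305-112794352, plus strand: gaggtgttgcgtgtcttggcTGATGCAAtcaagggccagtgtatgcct
CXCL2 and CXCL3, shared site, chr4:74057019-74057066, minus strand: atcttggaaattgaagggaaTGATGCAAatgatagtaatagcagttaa
CXCL3, weaker copy of the shared site, chr4:73991528-73991575, minus strand: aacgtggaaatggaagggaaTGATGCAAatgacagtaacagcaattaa
CXCL1, copy without a site, chr4:73844211-73844258, plus strand: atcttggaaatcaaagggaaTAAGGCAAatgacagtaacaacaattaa
CXCL8, strongest site, chr4:73704726-73704773, plus strand: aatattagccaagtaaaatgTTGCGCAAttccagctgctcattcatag
CXCL2, copy of that CXCL8 sequence beside a weak site, chr4:74109257-74109304, plus strand: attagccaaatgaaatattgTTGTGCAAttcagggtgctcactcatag
CXCL8, nearer site, chr4:73721569-73721616, plus strand: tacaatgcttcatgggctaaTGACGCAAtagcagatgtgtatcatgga
TNFAIP3, strongest site, chr6:137904680-137904727, minus strand: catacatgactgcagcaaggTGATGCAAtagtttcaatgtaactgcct
IL6, strongest site, chr7:22700863-22700910, minus strand: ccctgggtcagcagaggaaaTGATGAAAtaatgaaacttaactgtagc
NFKBIA, promoter site, chr14:35404082-35404129, plus strand: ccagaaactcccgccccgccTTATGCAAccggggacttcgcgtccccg

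ATF4 sites were found around 9 of the 10 genes, all but CXCL1. The share of 90% (95% Wilson interval 59.6 to 98.2) stands beside 57.6% of the 20033 protein-coding genes. At least 3 sites were found at 6 genes, namely CXCL2, CXCL3, IL6, TNF, CCL2 and TNFAIP3 (60%, 31.3 to 83.2), where 11.8% of protein-coding genes had as many. Sites ranked among the strongest 10% of the list by q-value were found at 5 genes, namely CXCL8, CXCL2, CXCL3, IL1B and TNFAIP3 (50%, 23.7 to 76.3), where 10.9% of protein-coding genes had such a site. These 5 genes shared 4 sites. With a q-value under 1e-05, 9 of 10 members still had a site, against 52.7% of protein-coding genes. Wilson intervals here treat genes as independent, which neighbours in the CXCL cluster are not.

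Most sites were distal. Only NFKBIA had a site at its own promoter (10% of members, 1.79 to 40.4, against 4.4% of protein-coding genes). A promoter was defined as 1000 bp upstream to 100 bp downstream of an annotated start. No more than 4 of the 23 summits lay within 10 kb of the start of their gene, and 1 lay within 1 kb. These distances were not counted for all ATF4 sites, so a distal position cannot be called particular to the members. By annotation 19 summits were intergenic (82.6%, against 33.8% of all ATF4 sites) and 2 were intronic (8.7%, against 54.1%). A further 2 lay at promoters (8.7%, against 7.66%), those of NFKBIA and PRRC2A, and 0 in exons (against 4.51%). Member genes were short, from 1916 bp (CXCL1) to 16101 bp (TNFAIP3), so most of each locus lay outside the member gene. How far this set the intergenic share was not tested. The density was 22.9 sites per Mb (exact Poisson 95% interval 14.5 to 34.3) over 1.01 Mb of merged member loci. All protein-coding loci together had 6.09 sites per Mb and the whole genome 5.28. With 10 kb in place of 50 kb on both sides, 40% of the members had a site, against 33.8% of protein-coding genes. At 25 kb the shares were 80% and 44.2%, and with 50 kb on both sides of the start site 90% and 45.8%. The difference from other genes was thus small at 10 kb and larger in the wider windows. At 10, 25 and 50 kb on both sides of the gene, the gene body was included. Long genes were thus searched over more sequence than the short members. With 50 kb around the start site, 50% of members and 7.31% of protein-coding genes had a site of the strongest 10%. That alternative was chosen after seeing the data.

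**Figure D1:**
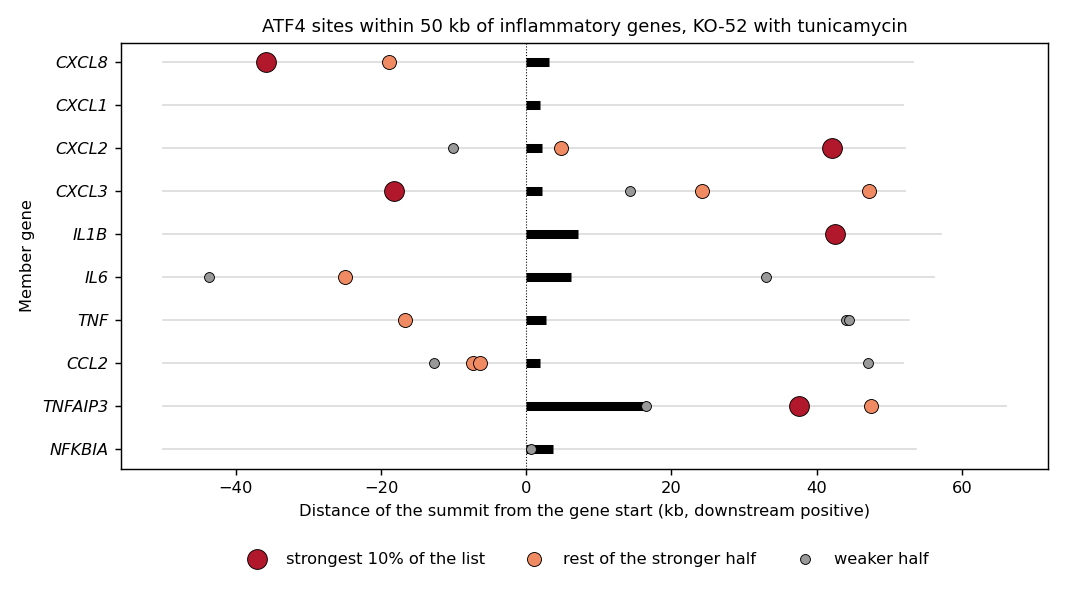
Each row is 1 gene, black bars are gene bodies, grey lines the searched loci, and circles the ATF4 summits by distance from the gene start in kb, drawn in the direction of transcription and sized and coloured by strength. The 5 large circles are 4 sites, since the site at +42.2 kb of CXCL2 is the site at −18.2 kb of CXCL3, and CXCL1 has none.

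In strength the member sites covered nearly the whole list. Their ranks ran from 20 to 15572, with a median of 7567, 13 sites in the stronger 50% of the list and 7 in the weakest 25%. The median fold enrichment over the local background was 8.11, against 7.81 over all sites, and the median width was 211 bp, against 229 bp. The typical member site was thus close to the typical site of the list in strength and width, and 4 sites lay far above it.

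**Figure D2:**
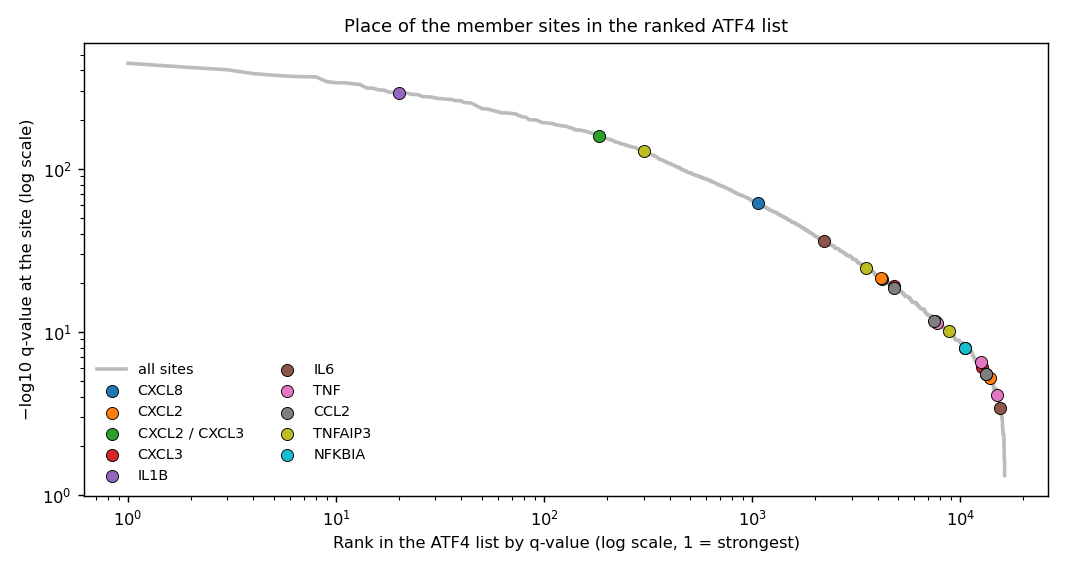
The grey line gives −log10 of the q-value (y axis, log scale) of all 16305 ATF4 sites by rank (x axis, log scale, 1 is the strongest), and the points are the 23 member sites coloured by gene. The sites at IL1B, at CXCL2 and CXCL3, at TNFAIP3 and at CXCL8 lie apart on the upper left, at ranks 20, 184, 302 and 1063, and the others follow from rank 2216 downward.

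Among the CXC chemokine genes, which lie together on chromosome 4, CXCL8 (chr4:73740519-73743716, plus strand), encoding interleukin 8, had 2 sites, both upstream. The stronger was 372 bp wide, at −35.8 kb from the start (chr4:73704475-73704846), and had a 25.03-fold enrichment, a −log10 q of 61.5 and rank 1063. It held no TGATGCAA within 100 bp of the summit, and its nearest approach, TGACTCAA, differed by T4C and G5T, with positions counted from 1 at the 5′ end of TGATGCAA. That sequence is also a match to AP-1 (TGANTCA, the sequence bound by FOS and JUN dimers). The same window held the palindromic CEBP sequence TTGCGCAA, 56.5 bp from the summit. It is rare in general, held by 0.0797% of all sites and by 0.0276% of control windows 5 kb to either side. The nearer site, at −18.9 kb, was 236 bp wide, with a 10.9-fold enrichment, a −log10 q of 21.0 and rank 4182, and its sequence TGACGCAA differed from the composite by T4C, 7.5 bp from the summit.

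CXCL2 and CXCL3, which encode neutrophil attractants expressed early by activated myeloid cells, shared the strongest chemokine site. It was 527 bp wide (chr4:74056886-74057412), at −18.2 kb from the CXCL3 start and 42.2 kb downstream of the CXCL2 start, and had a 50.0-fold enrichment, the highest of the 23 sites, a −log10 q of 159 and rank 184. TGATGCAA lay 3.5 bp from its summit, and an AP-1 sequence was in the same window. The nearer start was that of CXCL3.

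CXCL3 (chr4:74036589-74038807, minus strand) had 3 further sites, all downstream. The farthest, 47.2 kb from the start, was 208 bp wide with an 8.6-fold enrichment and rank 7567, and held TGATGCAA 17.5 bp from the summit. Its nearest protein-coding start was that of ENSG00000288796, with the summit at −3379 bp. The next, at 24.3 kb, was 283 bp wide with an 11.4-fold enrichment and rank 4774, held TGATGTAA (C6T), and lay nearest to CXCL5, another neutrophil attractant. The third, at 14.3 kb, was weak, with a 6.11-fold enrichment, a width of 197 bp and rank 12722, although it held TGATGCAA 24.5 bp from its summit. CXCL3 thus had 3 sites with the full composite, more than any other member, and these ranked 184, 7567 and 12722.

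CXCL2 (chr4:74097040-74099196, minus strand) had 2 further sites. The site 4727 bp downstream of its start was 283 bp wide, with an 11.5-fold enrichment and rank 4139, and its best match to TGATGCAA had 2 mismatches. The smallest width in the list, 156 bp, was that of 8.18% of all sites, among them the site at −10.0 kb. That site had a 4.78-fold enrichment and rank 13905. It lay nearest to the start of MTHFD2L, a mitochondrial folate enzyme gene, at −4953 bp. Of the CXCL2 sites, then, only the distant site shared with CXCL3 was strong.

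CXCL1 (chr4:73869393-73871308, plus strand), a further neutrophil attractant, was the only member without a site. The nearest summit was outside the locus, at −66.7 kb from its start, at rank 8370 with an 8.1-fold enrichment, whereas the farthest member summit inside a locus was 47.5 kb from its start, at TNFAIP3. The CXCL1 locus held TGATGCAA at 3 places, none at a summit, with the nearest at −35833 bp from the start.

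The CXCL genes arose by duplication, and parts of the surrounding sequence are copies of each other, so like sequences with and without a site could be set side by side. The 200 bp around the shared CXCL2 and CXCL3 summit were 80.7% identical over 202 bp to the far CXCL3 site, and both carried TGATGCAA, yet they ranked 184 and 7567. The copy upstream of CXCL1, at −25157 bp from its start and 75.8% identical over 194 bp, read TAAGGCAA (G2A and T4G) and had no site, the nearest summit being 41537 bp away. The strongest CXCL8 site was 80.2% identical over 202 bp to the weak site at −10.0 kb of CXCL2. Where the CXCL8 copy read TTGCGCAA, the CXCL2 copy read TTGTGCAA, a C4T difference counted from the first base of TTGCGCAA, and the ranks were 1063 and 13905. The CXCL8 sequence lay within its peak, whereas the CXCL2 sequence lay just past the end of the called peak (chr4:74109109-74109264). Both copies kept TGACTCAA 20.5 bp from the summit. A sequence 82.0% identical over 200 bp to the CXCL2 site at 4727 bp lay 3537 bp downstream of the CXCL1 start and had no site. In 1 of these pairs the copies shared the composite and differed in rank, and in another the copy that differed in the composite had no site. Whether the base differences account for the ranks was not tested.

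IL1B (chr2:112829751-112836816, minus strand), which encodes interleukin 1 beta, had a single site, and it was the strongest of all members. The site (chr2:112794073-112794610) was 538 bp wide with a 45.4-fold enrichment and a −log10 q of 292, rank 20 of the list, within the top 0.123%. Ranked by fold enrichment it was in place 169. The summit lay 42.5 kb downstream of the IL1B start and at −9838 bp from the start of IL1A, the gene for interleukin 1 alpha, which was the nearest protein-coding start. TGATGCAA lay 2.5 bp from the summit, and a PU.1 sequence (GAGGAAGT, bound by the myeloid factor PU.1) was in the window. Of 5 copies of TGATGCAA in the locus, the other 4 were not at a summit.

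IL6 (chr7:22725884-22732002, plus strand), the gene of the cytokine interleukin 6, had 3 sites. The strongest, at −24992 bp, lay in an intron of STEAP1B, with a width of 293 bp, an 11.9-fold enrichment, a −log10 q of 35.8 and rank 2216. It held TGATGAAA (C6A) 5.5 bp from the summit. Another intronic site in STEAP1B, at −43.6 kb, had a 5.92-fold enrichment, a width of 202 bp and rank 13253, and its best match had 2 mismatches. The downstream site, at 33.0 kb, was the weakest by q-value of all 23, with a −log10 q of 3.43, a 4.79-fold enrichment, a width of 160 bp and rank 15572. TGATGCAA was in its window, but 84.5 bp from the summit. The IL6 locus held 9 copies of TGATGCAA, the most of the 10 genes, and 1 was at a summit, the weakest.

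TNF (chr6:31575565-31578336, plus strand), encoding tumor necrosis factor, also had 3 sites, none of them strong and none with TGATGCAA. The strongest, at −16.7 kb, was 200 bp wide with an 8.11-fold enrichment and rank 7716, held TGATGAAA (C6A), and lay nearest to ATP6V1G2. The other sites, at 43986 and 44509 bp downstream, belonged by position to PRRC2A, with summits at −1164 and −641 bp from its start. The former was 162 bp wide with a 6.01-fold enrichment and rank 12497, and held TGATGAAA 0.5 bp from the summit. The latter was 181 bp wide with a 4.59-fold enrichment, the lowest of the 23, and rank 15064, and held TCATGCAA (G2C). No TNF site was nearest to TNF itself. The locus held 1 TGATGCAA, at −45254 bp from the start, and no summit was there.

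CCL2 (chr17:34255274-34257208, plus strand), the gene of a monocyte attractant, had 4 sites, of which 3 clustered upstream. That at −7363 bp was the strongest, with a width of 319 bp, an 8.96-fold enrichment, a −log10 q of 18.65 and rank 4808, and held TGATGCAA 51.5 bp from the summit. A neighbour at −6371 bp was 239 bp wide with a 7.8-fold enrichment and rank 7470, and its best match had 2 mismatches. At −12.7 kb a site of 211 bp had a 6.72-fold enrichment, rank 10463 and TGATGTAA (C6T). CCL2 was the nearest protein-coding gene of these 3 sites, and no other member had 2 summits within 10 kb of its start, although none of them was in the stronger 25% of the list. The remaining site, 47.0 kb downstream, was nearest to CCL11, an eosinophil attractant gene, and had a 5.92-fold enrichment, a width of 176 bp and rank 13253. It held TGATGCAA 66.5 bp from the summit.

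TNFAIP3 (chr6:137867214-137883314, plus strand) encodes A20, a ubiquitin-editing enzyme that ends NF-kB signaling. Its 3 sites lay downstream of the gene end, and TNFAIP3 was the nearest protein-coding gene of each. The strongest (chr6:137904519-137904893), 37.5 kb from the start, was 375 bp wide with a 27.85-fold enrichment, a −log10 q of 128 and rank 302, in the top 1.85%. TGATGCAA lay 11.5 bp from its summit, and a RUNX sequence (TGTGGTT) was in the window. The site at 47.5 kb was the widest of the 23, 682 bp, with a 12.1-fold enrichment and rank 3534, and held TGATTCAA (G5T), an AP-1 and a PU.1 sequence. The AP-1 pattern TGANTCA matches within TGATTCAA itself. The site at 16.4 kb, just past the gene end, was 190 bp wide with a 7.3-fold enrichment, rank 8851 and TGATGTAA (C6T).

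NFKBIA (chr14:35401079-35404749, minus strand) encodes IkB alpha, which holds NF-kB in the cytoplasm. Its only site (chr14:35404017-35404201) lay 676 bp downstream of the gene start and 67 bp from a further annotated start of NFKBIA, and was therefore at a promoter. It was 185 bp wide, with a 6.91-fold enrichment, a −log10 q of 7.93 and rank 10467. The 200 bp around the summit had a GC content of 80.1%, and the best match, TTATGCAA (G2T), was 32.5 bp from the summit. Of the NF-kB inhibitors, then, TNFAIP3 had a strong distal site and NFKBIA a weak site at its promoter.

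The composite sequence was absent from most member sites, unlike the list as a whole. TGATGCAA was within 100 bp of the summit in 8 of 23 member sites (34.8%, Wilson 18.8 to 55.1), against 65.2% of all 16305 sites and 0.773% of control windows 5 kb to either side. It was found in 5 of the 13 stronger and 3 of the 10 weaker member sites, while 74.1% of the stronger and 56.4% of the weaker 50% of all sites held it. At 4 of the 8 it lay within 20 bp of the summit, and 3 of these 4 were the strongest sites of IL1B, of CXCL2 and CXCL3, and of TNFAIP3. How many of all ATF4 sites held it so near was not counted, so this nearness cannot be called particular to the members. In a window of 100 bp in place of 200 bp, 5 member sites held it (21.7%), against 58.2% of all sites. A further 10 member sites had a best match with 1 mismatch, and 5 had 2 mismatches. With 1 mismatch allowed, 18 of 23 (78.3%) matched, against 93.5% of all sites and 16.5% of control windows.

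**Figure D3:**
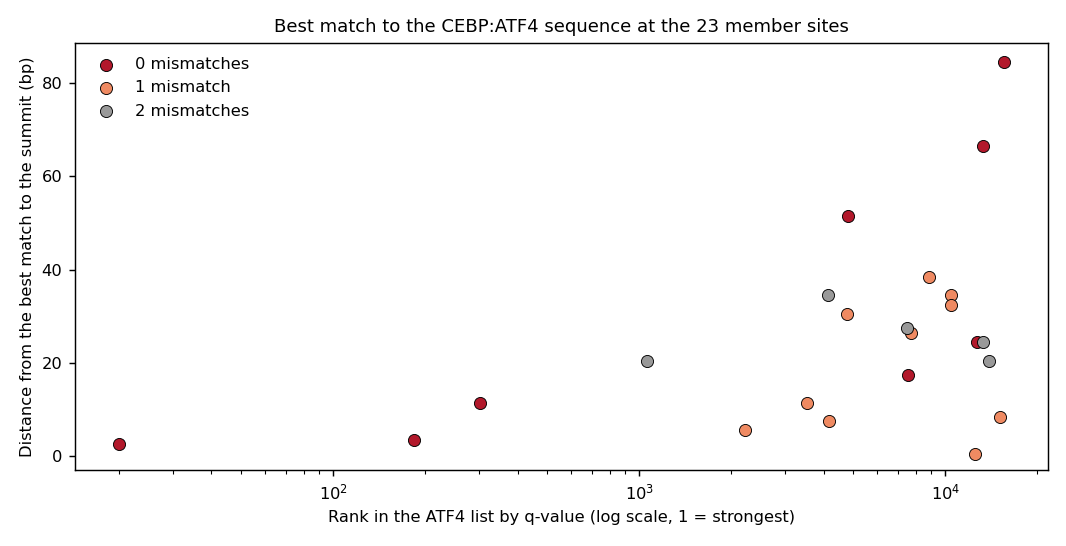
Each point is 1 of the 23 member sites, by its rank in the list (x axis, log scale) and the distance in bp from the summit to its best match to the CEBP:ATF4 composite (y axis), coloured by the number of mismatches. The 3 sites ranked 20, 184 and 302 have the full sequence within 11.5 bp of the summit, and the 3 exact matches over 50 bp from the summit belong to sites ranked 4808 or weaker. These distances were not counted over all ATF4 sites.

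Of the 10 member sites whose best match had 1 mismatch, 7 held a variant that was over 10 times as frequent at other ATF4 sites as in control windows, and 3 did not. Among the 5666 ATF4 sites without TGATGCAA, TGATGAAA was in 32.5% (1.64% of control windows) and was the best match of 3 member sites, at IL6 and TNF. TGATGTAA was in 29.3% (0.908% of control windows) and was the best match of 3, at CXCL3, CCL2 and TNFAIP3. TGACGCAA, seen at the nearer CXCL8 site, was in 5.03%, against 0.0736% of control windows, the largest ratio of the near matches named here, 68.3. The other 3 variants were nearer to their control level. TTATGCAA, at the NFKBIA promoter site, was in 3.49% of these sites against 0.81% of control windows, a ratio of 4.32. TCATGCAA, at TNF, had a ratio of 2.74 (1.87% against 0.684%), and TGATTCAA, at TNFAIP3, of 1.55 (1.41% against 0.911%).

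Other sequences were searched on both strands in the same 200 bp. AP-1 (TGANTCA) was in 4 member sites (17.4%, 6.98 to 37.1), against 8.4% of all sites and 6.34% of control windows. The interval treats sites as independent, but the strongest CXCL8 site and the weak CXCL2 site with this match are copies of each other. At both, and at TNFAIP3, the AP-1 letters lie within the nearest match to the composite. RUNX (TGTGGTT) was in 4 as well, against 5.81% of all sites. PU.1 (GAGGAAGT) was in 2 (8.7%, against 2.46%). The CEBP sequence TTGCGCAA was in 1, the strongest CXCL8 site (4.35%, 0.772 to 21, against 0.0797%). The CRE (TGACGTCA), the site of ATF homodimers and CREB, and the NF-kB consensus were in 0 of 23, and in 0.141% and 0.583% of all sites. With 23 sites these shares have wide intervals, and only letters within these windows were read.

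Most copies of the composite in the loci were not at a summit. The merged member loci held 36 copies of TGATGCAA, of which 8 lay within 100 bp of a summit (22.2%, Wilson 11.7 to 38.1). Over all protein-coding loci 7239 of 65808 copies did so (11.0%), and over the genome 9.81%. Besides CXCL1 and TNF, CXCL8 (1 copy) and NFKBIA (3 copies) had no copy at a summit, CCL2 had 2 of 5, and TNFAIP3 1 of 4.

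In a wider set of 92 inflammatory genes the shares lay nearer to those of all protein-coding genes. A site within 50 kb was found at 65 genes (70.7%, 60.7 to 79.0), of which 7 had only sites of the member loci. Without those sites the share was 63.0%, against 57.4% of protein-coding genes, an alternative chosen after seeing the data. Sites of the strongest 10% were found at 11 genes (12.0%), close to the 10.9% of protein-coding genes, and promoter sites at 5 (5.43%, against 4.4%), namely CCL4, NFKB2, PTGS2, VEGFA and ZFP36L1.

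By role, 7 of 8 further CXC chemokines had a site, led by CXCL9, CXCL10 and CXCL11, interferon-induced T cell attractants that shared the site ranked 1657. Of the CC chemokines 6 of 7 had a site, led by CCL8 (rank 1114), CCL5 (rank 1306) and CCL7, which lay within reach of the CCL2 site ranked 4808. Of the cytokines 11 of 17 had a site, led by IL1A, through the site ranked 20 that it shares with IL1B, TNFSF10 (rank 1210) and IL12B (rank 3379). These counts stand beside 57.6% of protein-coding genes and count neighbours repeatedly. Of the 7 CXC genes with a site, 3 (CXCL5, PPBP and PF4) reached only sites of the member loci, as did CCL7, and the cytokine genes IL1A, LTA and LTB.

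The other roles lay on both sides of the 57.6% of protein-coding genes, with intervals of 23.1% to 88.2% at the widest. Of the receptors 9 of 13 (69.2%) had a site, led by CCR2 (rank 1561), the receptor of CCL2, IL1R1 (rank 1630) and IL10RA (rank 3534). Toll-like and inflammasome genes had a site at 8 of 11 (72.7%), led by the adaptor TRAF6 (rank 1008), IRAK2 and IRAK1. NF-kB subunit genes had a site at 3 of 5 (60%), NFKB2 (rank 3314), NFKB1 (rank 3672) and RELB (rank 9296). Genes grouped under NF-kB feedback had a site at 8 of 15 (53.3%), led by TNFAIP8 (rank 226), TNIP2 (rank 3106) and the pair BIRC2 and BIRC3 (rank 4923). This label is broad and takes in TNF-induced genes that are not inhibitors of NF-kB, such as TNFAIP8. The only gene of the group with a site of the strongest 10% was TNFAIP8. Other feedback and effector genes had a site at 13 of 16 (81.2%), led by VEGFA (rank 223), ZFP36L1 (rank 834), which promotes mRNA decay, and SOCS3 (rank 1523), an inhibitor of cytokine signaling.

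Established ATF4 targets were listed as a check of the antibody, also with earlier results of these data known. They had a site at 31 of 32 genes (96.9%, 84.3 to 99.4), all but NUPR1. Sites of the strongest 10% were at 28 (87.5%, 71.9 to 95) and promoter sites at 23 (71.9%). The 3 best-ranked genes of each role were CHAC1 (rank 4), TRIB3 (rank 5) and DDIT4 (rank 32) among stress genes, SARS1 (rank 13), WARS1 (rank 36) and MARS1 (rank 128, through a site it shares with DDIT3) for tRNA charging, and SHMT2 (rank 18), SLC7A1 (rank 24) and SLC7A5 (rank 27) for amino acid supply. Promoter sites were at SHMT2, SLC3A2, SLC7A11, ASNS, SLC1A5, PHGDH and PSAT1 for amino acid supply, at WARS1, MARS1, IARS1, AARS1 and NARS1 for tRNA charging, and at CHAC1, TRIB3, DDIT4, SESN2, DDIT3, HERPUD1, CEBPG, ATF3, VLDLR, GDF15 and STC2 among the stress genes. The IL1B site, at rank 20, lay among these leading sites. Of the members, 1 of 10 had a promoter site, and the IL1B summit was 42.5 kb from the gene start. The best sites of TRIB3, SLC7A5 and MARS1 were also away from the gene start, at 18104, 15772 and 12633 bp. Those of the other best-ranked targets named lay at most 2958 bp (WARS1) from the start.

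**Figure D4:**
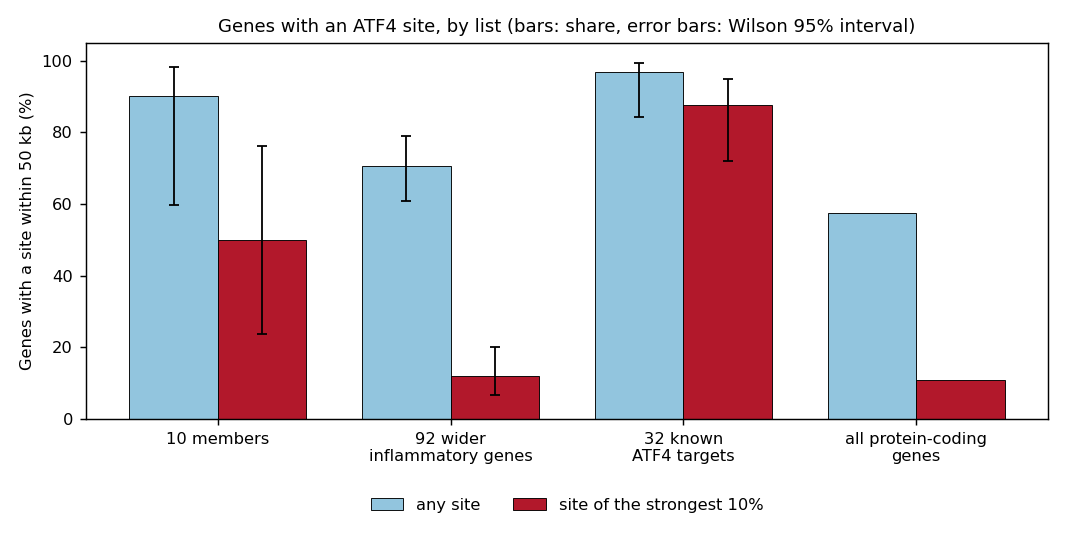
Bars give the percent of genes with any ATF4 site (blue) or a site of the strongest 10% (red) within 50 kb, for the 10 members, the 92 wider inflammatory genes, the 32 known ATF4 targets and all protein-coding genes, with Wilson 95% intervals for the lists. For strong sites the members (50%) lie between the targets (87.5%) and the wider genes (12.0%), and the latter sit at the level of all genes (10.9%).

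CEBPA, which can pair with ATF4, was measured in HPC-7, a mouse hematopoietic progenitor line that carried a retroviral transgene for a CEBPA isoform. The isoform was p42, the long form, or p30, which lacks the N-terminal part, and ERT2, an estrogen receptor piece attached to it, brings it into the nucleus when 4-hydroxytamoxifen is added. Cells with such fusions received this drug before experiments, which the labels do not name. The CEBPA libraries, 1 for each isoform and antibody, were grouped as untreated, that is, without LPS. The titles of the anti-ER libraries say so, while those of the anti-CEBPA libraries name no treatment. All 9 genes of the same name (no mouse gene is named Cxcl8) had a CEBPA site within 50 kb on mm39 with the antibody against CEBPA, in p42 cells (86.7% of mouse protein-coding genes) and in p30 cells (79.6%), and with that against ER (70.5% and 79.6%). With the antibody against CEBPA there were 55 distinct sites in p42 and 32 in p30 cells, from lists of 47517 and 31851 sites, and the antibody against ER gave 45 and 52, from lists of 23248 and 34006 sites. The isoforms were not compared on these counts, which come from lists of unequal length. The best-ranked was at −32034 bp from the Cxcl3 start in p42 cells and at −32026 bp in p30 cells, rank 345 of 47517 in p42 cells and rank 250 of 31851 in p30 cells with anti-CEBPA. With anti-CEBPA, Tnfaip3 had its best site at −38018 bp in p42 cells (rank 1008) and at −38014 bp in p30 cells (rank 1594), and the anti-ER ranks were 837 and 1399. Il1b, whose human counterpart had the strongest ATF4 site, had a best rank of 12690 in p42 and 10706 in p30 cells with anti-CEBPA, and of 6559 and 5476 with anti-ER. H3K27ac peaks, a mark of active regulatory regions called on 3 pooled libraries a group, were at all 9 genes in untreated and in LPS-exposed cells (100 ng/mL for 2 h) of both isoforms. Of mouse protein-coding genes 76.7% in p42 and 76.6% in p30 cells had such a peak untreated, and 76.3% and 77.1% with LPS. Species, cell line, factor and treatment differ between these lists and the ATF4 list, so the values stand side by side and were not compared.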

How the data were processed

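Following the study's methods and the submitters' processing notes, reads passed through Trim Galore 0.6.6, Bowtie2 (hg38 or mm39) and Picard duplicate removal, and MACS2 called peaks over input. The ATF4 list came from 1 library and the H3K27ac lists from pooled replicates. As deposited by the authors, each list gives the fold enrichment and the −log10 of the q-value of every peak, and the ATF4 list was cut at a q-value of about 0.05. The −log10 p-value, also deposited, was not used here.

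Groups came from the labels. Sites on the standard chromosomes (16305 of 16470) were ranked by −log10 q. Loci, start sites and places used GENCODE 44 (human) and 39 (mouse). A promoter ran from 1000 bp upstream to 100 bp downstream of any annotated start, and exon, intron and intergenic sequence followed in that order. Consensus sequences were searched on both strands in the 200 bp around each summit and 5 kb to either side. Copies in the CXCL cluster were found with blastn 2.17.0 (E-value limit 1e-05). Placement was tested on simulated data, where 200 of 200 planted sites were assigned right. Intervals (Wilson, exact Poisson) cover counting error only, and with 1 library no p-value was computed.

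All 10 genes and their 23 sites are named. Of the other lists, the 3 best-ranked genes of each role and every gene with a promoter site are named. The genes and lists were chosen with earlier results of these data known. Input libraries and the H3K4me1 lists were not used here. Scripts used Python 3.11.15, numpy 2.4.6, pandas 2.3.3 and scipy 1.17.1.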

Additional observations from a re-analysis of the deposited data

How the results depend on the processing

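Of 32 alternatives for the counts and shares, 25 stayed within 1.5 times the count or within the interval of the share. These 25 include the background of all annotated genes (49.6% with a site), which could not change the member share. The intervals for the 10 members were wide (59.6 to 98.2 for any site), so a share could shift much and still count as unchanged. The number of member sites fell to 5 with 10 kb and 14 with 25 kb on both sides, and to 13 in the stronger 50% of the list. The share of members with a site was 40% at 10 kb (33.8% of protein-coding genes) and 100% at 100 kb (75.2%). The wider inflammatory list had 38% at 10 kb (33.8%), and the known targets 96.9%. With 1 mismatch allowed the composite was in 78.3% of member sites (93.5% of all sites). The shares in brackets were counted under the same altered setting. Why the lists changed by unlike amounts was not tested. The share with a site of the strongest 10% was 50% also when ranked by fold enrichment (10.8% of protein-coding genes), and 40% for the strongest 5% (6.14%), both alternatives chosen after seeing the data. Without the CXCL2 and CXCL3 locus, also chosen afterwards, the density was 20.2 sites per Mb. Ranked by fold enrichment, the best site of IL1B moved from 20 to 169, and those of CXCL2, CXCL3, IL6 and TNFAIP3 also moved by over 1.5 times. No paired analysis was possible because ATF4 was measured in 1 library and no result comes from a test. With 1 library, peaks that a repeat would not recover cannot be told from the others, and weak signal below the list's q-value limit was not detectable, so the lack of a site at CXCL1 holds for this list only.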
